A study of Mus musculus with 8 samples.

Results

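Aquaporins are membrane channels that pass water down an osmotic gradient. They fall into water-selective channels, aquaglyceroporins that also pass glycerol and other small solutes, and a divergent intracellular branch. In the mouse embryo the outer epithelium, the trophectoderm, pumps ions inward and water follows to fill the blastocyst cavity, and aquaporin proteins have been described in that epithelium. The 5 genes described here are Aqp3 and Aqp9, which encode aquaglyceroporins, Aqp5, which encodes a water-selective channel of gland and airway epithelia, Aqp8, which encodes a channel that passes water and also ammonia and hydrogen peroxide, and Aqp11, which encodes a channel of the endoplasmic reticulum. They were read by every probe set whose platform annotation named exactly one of these symbols, 11 probe sets of 45101 on the array. These were 4 probe sets for Aqp3, 3 for Aqp11, 2 for Aqp9 and 1 each for Aqp5 and Aqp8.

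The study measured messenger RNA of whole mouse embryos with 1-colour oligonucleotide arrays, 4 arrays of blastocysts and 4 of 8-cell embryos. Blastocysts were taken at 120 h (embryonic day 4.5) and 8-cell embryos at 66 h (day 2.5), both timed from the injection of human chorionic gonadotropin, which triggers ovulation. Both groups were wild type embryos from B6D2F1 parents, collected at the 1-cell stage and cultured in KSOM medium, and neither received a treatment. The study is about AP-2 gamma, a transcription factor, and its part in tight junctions and cavity formation, so the stage comparison bears on which water channel genes differ between an embryo with a cavity and one without. Whether the 4 arrays of 1 stage held independent embryo pools is not in the labels, and the spread behind each p-value may therefore be technical.

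Signals are in the deposited array units, which had been scaled to the same trimmed mean on each array, so a difference is relative to the rest of the array and is no amount per embryo. Arrays of a stage correlated at 0.982 to 0.988 (blastocyst) and 0.977 to 0.981 (8-cell) over 13274 tested genes. Of 11 blastocyst lineage markers 11 were higher in blastocysts at an adjusted p under 0.05 (limma), where 37.5% of all tested genes were. Of 8 maternal and 8-cell markers 8 were lower, where 34.2% of all tested genes were. The markers were chosen with earlier results of these data known, so these counts are not an independent check of the labels. Cumulus cell markers had a summed signal of 363 to 476 in blastocysts and 6426 to 10081 in 8-cell embryos, and Amhr2, at 282 ± 36.8 in blastocysts and 8118 ± 1598 in 8-cell embryos, made up most of it. Ptx3, Has2 and Tnfaip6 of the same list each averaged between 11.6 and 23.4 in blastocysts and between 8.98 and 20.8 in 8-cell embryos. Fshr averaged 38.6 in blastocysts and 30.35 in 8-cell embryos, and Inha 55.1 in blastocysts and 39.0 in 8-cell embryos. Blood cell markers summed to 94.4 to 177 in blastocysts and 157 to 222 in 8-cell embryos, and oviduct and uterine markers to 199 to 290.2 in blastocysts and 286 to 368 in 8-cell embryos. The 3' minus 5' difference of the Actb control probe sets was 0.82 ± 0.11 log2 units in blastocysts and 2.43 ± 0.19 in 8-cell embryos (SD over 4 arrays each; p = 0.0286 by an exact permutation test, two-sided, which is the smallest p this design allows, and 0.0571 after adjustment over 4 measures). The part of these differences in the results below was not tested. Values of the 8-cell columns carry at most 1 decimal and those of the blastocyst columns do not, so a difference in how the stages were handled cannot be told apart from stage.

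Aqp8 and Aqp3 were higher in blastocysts, Aqp11 and Aqp9 were lower, and Aqp5 was too dim at both stages to be tested. Each difference is the blastocyst mean less the 8-cell mean of log2(signal + 16), for the brightest probe set of each gene, with adjusted p-values from limma over all tested genes. Aqp8 differed most, by 4.88 (SE 0.40), a 29.5-fold difference, and Aqp11 by -2.34 (SE 0.23), which is 5.07-fold lower. Aqp3 differed by 0.97 (SE 0.18), 1.96-fold, and Aqp9 by -0.52 (SE 0.19), 1.43-fold lower. Of the 4 tested genes 2 were thus called higher and 2 lower at an adjusted p under 0.05, where 37.5% of all tested genes were called higher, 34.2% lower and 71.7% in either direction. A call at that threshold was common on these arrays. The stages did not overlap for 2 genes that were higher and 1 that was lower, where 35.3% of tested genes were higher without overlap, 31.5% lower and 66.8% either way. Among all tested genes 1.24% had a larger absolute difference than Aqp8, 13.4% a larger one than Aqp11, 46.9% than Aqp3 and 68.3% than Aqp9. In whole embryos, fewer cells of a type and less RNA per cell cannot be told apart.

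**Figure D1:**
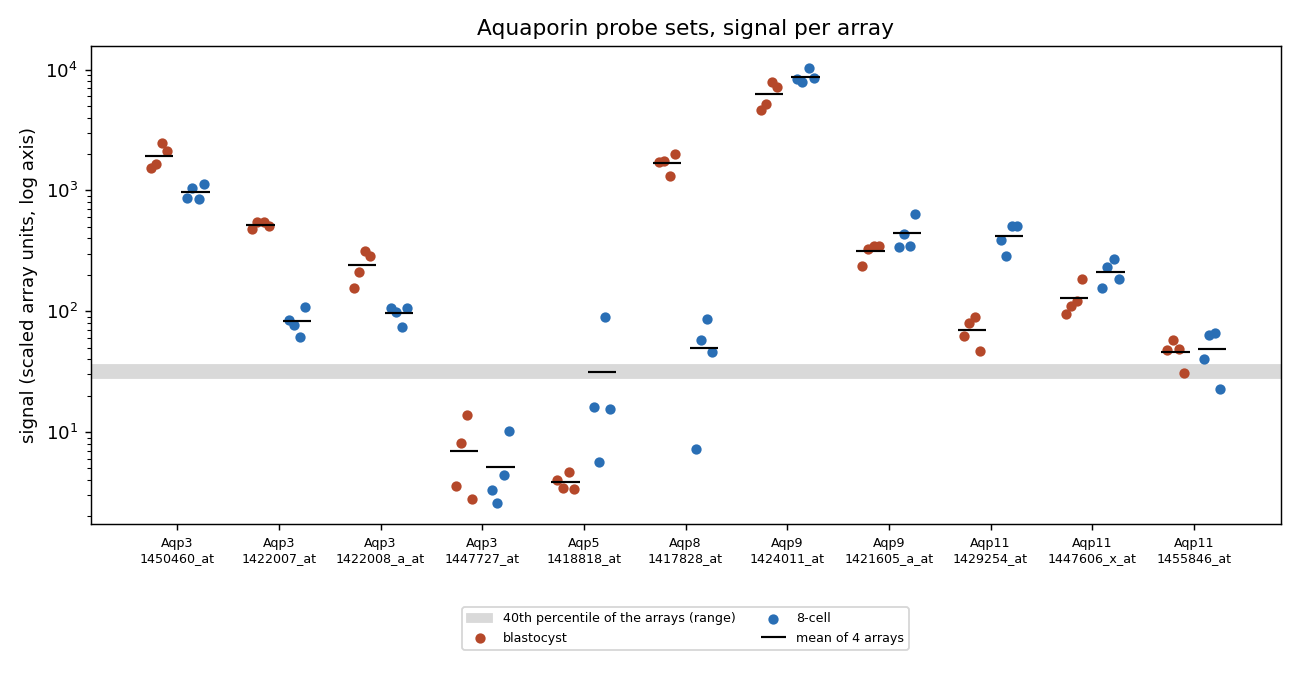
Signal of the 11 aquaporin probe sets on each array (log axis, scaled array units), with blastocysts left of 8-cell embryos for each probe set and the probe sets of a gene ordered by falling mean signal. Points are the 4 arrays of a stage, black lines their means, and the grey band spans the 40th percentile of the arrays. Aqp8 shows the widest gap between stages, and the Aqp5 signals lie under the band on all arrays but 1.

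The promoters of the 3 genes whose stages did not overlap on their brightest tested probe set are shown here, since these genes carry the result. They are RefSeq sequences of the build GRCm38.p6, each from 250 bases before to 50 bases after the annotated start, and all 5 genes had an entry. Capitals mark matches on either strand to 1 of 4 motifs, which were GCCNNNGGC for AP-2, CATTCC for TEAD factors, AGATAA for GATA factors and TATAAA for the TATA box. Positions count from 0 at the annotated start, and no window printed held more than 1 match.
Aqp3, chr4:41098134-41098433, minus strand: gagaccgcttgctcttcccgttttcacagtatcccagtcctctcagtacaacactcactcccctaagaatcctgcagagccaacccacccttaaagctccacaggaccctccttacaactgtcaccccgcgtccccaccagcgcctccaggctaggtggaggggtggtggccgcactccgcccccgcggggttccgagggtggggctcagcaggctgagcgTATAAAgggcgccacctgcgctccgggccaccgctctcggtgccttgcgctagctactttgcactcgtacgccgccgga
Aqp8, chr7:123462044-123462343, plus strand: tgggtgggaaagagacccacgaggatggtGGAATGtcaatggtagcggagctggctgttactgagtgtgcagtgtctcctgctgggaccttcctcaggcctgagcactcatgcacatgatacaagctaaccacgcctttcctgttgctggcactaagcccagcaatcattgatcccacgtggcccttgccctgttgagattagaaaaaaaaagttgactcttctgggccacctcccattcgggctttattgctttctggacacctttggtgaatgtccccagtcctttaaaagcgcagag
Aqp11, chr7:97738198-97738497, minus strand: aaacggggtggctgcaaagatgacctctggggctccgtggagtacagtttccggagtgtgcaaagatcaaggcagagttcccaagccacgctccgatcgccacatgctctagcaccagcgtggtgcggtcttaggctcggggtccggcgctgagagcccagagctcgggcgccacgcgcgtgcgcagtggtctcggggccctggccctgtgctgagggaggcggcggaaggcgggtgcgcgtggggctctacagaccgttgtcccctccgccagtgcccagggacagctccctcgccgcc
The Aqp3 window held a TATAAA at position -29 from the start, a motif found in 13.6% of 32851 promoter windows of this length. The Aqp8 window held a TEAD match at -221, in the orientation GGAATG, which 14.7% of windows hold. The Aqp11 window held none of the 4 motifs. Of the windows not printed, that of Aqp5 held an AP-2 match at position 40, which 16.6% of windows hold, and both Aqp9 windows held none. An AGATAA was in no member window and in 11.2% of all windows. The windows differed in base composition, from 41.3% G and C in the first Aqp9 window and 52% in Aqp8 to 64% in Aqp3, 68% in Aqp11 and 79.7% in Aqp5, against a median of 52.7% over all windows. A match is a description of letters and not a bound site, and the arrays hold no measurement of factor binding.

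Aqp8 had signals of 1728, 1756, 1325 and 1982 on the blastocyst arrays and of 7.2, 58.1, 86.2 and 46.2 on the 8-cell arrays. All 4 blastocyst arrays lay far above all 4 8-cell arrays, and the lowest blastocyst signal was blastocyst replicate 3. Mean signal was 1698 ± 273 in blastocysts and 49.4 ± 32.8 in 8-cell embryos (SD, n = 4 each; limma adjusted p = 2.91e-06). One of the 8-cell arrays, replicate 1, lay under the 40th percentile of its array, so the size of the fold depends in part on the constant added before the logarithm. The difference was 5.48 with 1 added, 3.99 with 64 added, 4.61 with signals under the 40th percentile raised to it, and 4.45 without 8-cell replicate 1. The tested genes whose profile over the 8 arrays was nearest to that of Aqp8, each profile centred on its own mean, were Tfpi (root mean square distance 0.30 log2 units), Skida1 (0.30) and Htra1 (0.43). Tfpi, which encodes an inhibitor of coagulation, differed by 4.47 (SE 0.44), and Htra1, which encodes a secreted serine protease, by 4.58 (SE 0.27). Genes picked for a near profile have a like stage difference through that choice, so these values are no separate result.

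Aqp3 was measured by 4 probe sets, of which 3 passed the filter on low signal and were higher in blastocysts (3 of 3 tested). Over all 9 tested aquaporin probe sets 4 were called higher and 3 lower, where 33.6% of all tested probe sets were called higher, 32.8% lower and 66.4% either way. Stages did not overlap for 4 higher ones and 1 lower one, where 31.4% of all tested probe sets were higher without overlap, 29.8% lower and 61.2% either way. The brightest Aqp3 probe set had 1527, 1660.1, 2454 and 2115 in blastocysts and 869, 1039, 841.5 and 1133 in 8-cell embryos. The stages did not overlap, and blastocyst replicates 3 and 4 were the higher ones. Its mean signal was 1939 ± 426 in blastocysts and 971 ± 139 in 8-cell embryos (limma adjusted p = 0.00078 over genes).

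The second brightest Aqp3 probe set gave a larger difference. It had 480.2, 549.7, 547 and 505 in blastocysts and 84.4, 77.5, 61.5 and 109 in 8-cell embryos. Here the blastocyst arrays were close together, and the stages lay far apart, with a difference of 2.46 (SE 0.16, limma adjusted p = 8.13e-07 over probe sets), 5.49-fold. The third Aqp3 probe set had 155, 209, 318 and 288 in blastocysts and 106, 98.1, 74.5 and 106 in 8-cell embryos, a difference of 1.17 (SE 0.22, limma adjusted p = 0.00104). As with the brightest probe set, blastocyst replicates 3 and 4 were higher than replicates 1 and 2. The fourth was under the 40th percentile on all 8 arrays (2.79 to 13.7 in blastocysts and 2.6 to 10.2 in 8-cell embryos) and was not tested. The ratio of the second to the brightest Aqp3 probe set within an array was 1.48 log2 units higher in blastocysts (two-sided exact p = 0.0286 by permutation, n = 4 each, adjusted p = 0.05 over 7 pairs of probe sets of one gene, compared after their values were seen). The adjusted value is at the threshold and not under it. The annotation gives the same sequence accession for these 3 probe sets, and the transcript stretch that each reads was not analysed here. The size of the Aqp3 difference, from 1.96-fold to 5.49-fold, therefore depends on the probe set read, and its direction did not.

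**Figure D2:**
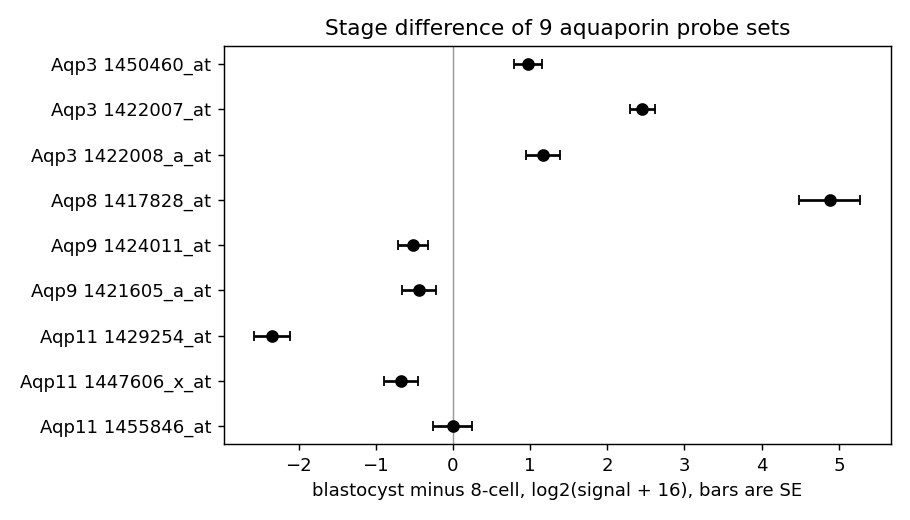
Difference between blastocysts and 8-cell embryos for the 9 tested aquaporin probe sets, in log2(signal + 16) units, with bars for the standard error. The 3 Aqp3 probe sets lie right of 0 between 0.97 and 2.46, and the 3 Aqp11 probe sets spread from -2.34 to -0.003.

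Aqp9, which encodes the other aquaglyceroporin among the 5, was bright at both stages. Its brighter probe set had 4578, 5189, 7940.4 and 7152 in blastocysts and 8346, 7839.7, 10352 and 8439.6 in 8-cell embryos. The stages overlapped, because blastocyst replicate 3 exceeded the lowest 8-cell array, and again blastocyst replicates 3 and 4 were the higher ones. The mean was 6215 ± 1590 in blastocysts and 8744 ± 1104 in 8-cell embryos, a difference of -0.52 with a 95% interval of -0.95 to -0.09 (limma adjusted p = 0.0341). The call did not hold in 7 of 21 alternative settings. It was lost with quantile scaling (-0.35, adjusted p = 0.16), with scaling to the hybridisation spike-ins (-0.25, adjusted p = 0.415) and without blastocyst replicate 1 (-0.39) or 2 (-0.45) or without 8-cell replicate 1 (-0.54), 3 (-0.44) or 4 (-0.53). The direction was the same in all 21. Fitted among all probe sets, this probe set passed as reported (limma adjusted p = 0.0404) but in only 9 of 19 alternative settings. The dimmer Aqp9 probe set had 236, 330.1, 343 and 345 in blastocysts and 342, 438, 346 and 639.6 in 8-cell embryos. These values overlapped too, and the difference of -0.44 (SE 0.22) did not pass (limma adjusted p = 0.101). With quantile scaling, which removed the call of the brighter probe set, the dimmer one passed (-0.70, adjusted p = 0.0142). The nearest profiles to Aqp9 were those of Nyx (0.12), Mdm1 (0.12) and Bicra (0.14).

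The ratio of Aqp3 to Aqp9 within an array was 1.49 log2 units higher in blastocysts than in 8-cell embryos (exact two-sided permutation p = 0.0286, n = 4 each, adjusted p = 0.0357 over 10 pairs of the 5 genes). The 2 aquaglyceroporin genes therefore changed unequally between stages. All 6 pairs among the 4 tested genes changed their ratio with the same p, the smallest the design allows, by 1.49 log2 units for Aqp3 over Aqp9 and by up to 7.23 for Aqp8 over Aqp11. Aqp3 and Aqp8 were higher without overlap and Aqp11 was lower without overlap. Their ratios to Aqp11 therefore had to separate, and these pairs only restate the results of the genes. Other gene pairs were not compared, and with 71.7% of all tested genes called, a changed ratio is not particular to these genes. The 4 pairs with Aqp5 rest on signals mostly under the 40th percentile, and nothing is read from them.

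Aqp11 fell on its brightest probe set, with 62.6, 80.1, 89.6 and 46.5 in blastocysts and 388, 284, 505 and 506.5 in 8-cell embryos. No blastocyst array reached the lowest 8-cell array, and the blastocyst signals were low but above the 40th percentile of each array. The mean was 69.7 ± 19.1 in blastocysts and 421 ± 107 in 8-cell embryos (limma adjusted p = 9.62e-06). The other probe sets differed less. The second Aqp11 probe set had 94.0, 109.9, 121 and 185 in blastocysts and 156.5, 232, 272 and 184 in 8-cell embryos, a difference of -0.67 (SE 0.23, limma adjusted p = 0.024), and the stages overlapped. This call was lost in 6 of 19 settings, among them scaling to the spike-ins (-0.42, adjusted p = 0.182). The third Aqp11 probe set had 47.5, 57.3, 49.0 and 31.1 in blastocysts and 40.2, 64, 66.1 and 22.9 in 8-cell embryos, a difference that did not pass (-0.003, SE 0.25, limma adjusted p = 0.992). The mean of the 3 probe sets gave -1.01 for the gene (adjusted p = 0.000146), against -2.34 from the brightest alone. Within an array, the ratio of the brightest to the second Aqp11 probe set changed by -1.67 log2 units from 8-cell embryos to blastocysts. That of the third to the brightest changed by 2.34 (exact two-sided permutation p = 0.0286 each, adjusted p = 0.05 over the 7 pairs compared for Aqp3 above). These adjusted values too are at the threshold and not under it. The size of the Aqp11 difference therefore also depends on the probe set read. The profiles nearest to Aqp11 were those of Cul5, which encodes a ubiquitin ligase scaffold (distance 0.18), Brca2, which encodes a DNA repair protein (0.19), and Myom2 (0.19). Their differences were -2.19 (SE 0.18), -2.43 (SE 0.16) and -2.24 (SE 0.29), which again follow from how these genes were picked.

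Aqp5 had 3.98, 3.45, 4.68 and 3.40 in blastocysts and 16.1, 5.6, 89.0 and 15.6 in 8-cell embryos. All 4 blastocyst arrays and 3 of 4 8-cell arrays lay under the 40th percentile, and the signal of 89.0 on 8-cell replicate 3 was the single one above it. The 4 blastocyst values were each below the 4 8-cell values, but at this signal no fold is given. Fitted without the filter the difference was -0.97 (SE 0.42, limma adjusted p = 0.076). It was -0.49 without 8-cell replicate 3 (adjusted p = 0.0391), -1.25 without 8-cell replicate 2 (adjusted p = 0.027), -2.06 with 1 added (adjusted p = 0.0391) and -0.42 with 64 added (adjusted p = 0.117), so both its size and its call depended on the setting. The profiles nearest to Aqp5 were at 0.33 for Klhl5 and 0.36 for Pbld2 and Trps1. With most Aqp5 signals under the 40th percentile, nothing is read from them. The nearest to Aqp3 was that of Stard5, a lipid transfer protein gene, at 0.08, with Mterf1a at 0.11 and Sp3 at 0.12.

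**Figure D3:**
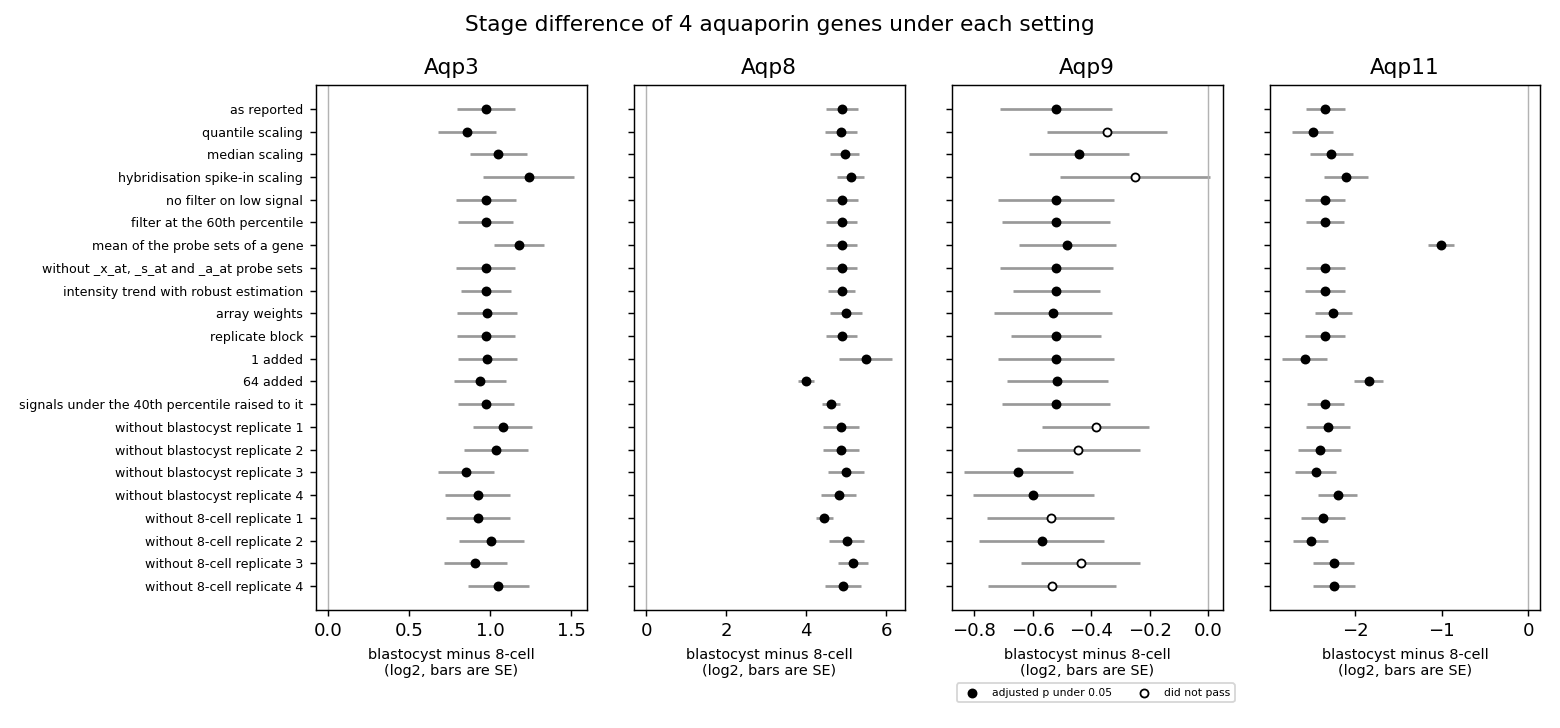
Difference between blastocysts and 8-cell embryos (log2 units, bars for the standard error) of Aqp3, Aqp8, Aqp9 and Aqp11 as reported and under each of 21 alternative settings. Filled points have an adjusted p under 0.05 and open points do not. Aqp3, Aqp8 and Aqp11 are filled throughout, and Aqp9 is open in 7 settings.

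Of the 7 other aquaporin genes, which were listed with earlier results of these data known, 3 passed the filter. Aqp7, which encodes another aquaglyceroporin, was higher in blastocysts, and the others tested did not pass. Aqp7 had 90.1, 138, 82.6 and 162 in blastocysts and 3.9, 4.0, 18.4 and 5.4 in 8-cell embryos on its brighter probe set. All 8-cell arrays lay under the 40th percentile, so the difference is a bound. Setting the 8-cell signals at that percentile, Aqp7 was at least 3.365-fold higher in blastocysts (limma adjusted p = 1.15e-05 on the signals as deposited). Its dimmer probe set lay under that level on all 8 arrays (7.56 to 28.2 in blastocysts and 4.1 to 12.4 in 8-cell embryos).

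Aqp2, which encodes the vasopressin-regulated channel of the kidney collecting duct, was at 57.6 ± 14.4 in blastocysts and 45.9 ± 10.5 in 8-cell embryos (difference 0.24, SE 0.18, limma adjusted p = 0.262). Aqp6, which encodes an anion-permeable channel of kidney cells, was at 36.3 ± 15.9 in blastocysts and 51.8 ± 20.4 in 8-cell embryos (difference -0.37, SE 0.28, adjusted p = 0.26). Aqp1, Aqp4, Aqp12 and the lens channel gene Mip did not pass the filter, with mean signals between 11.6 and 19.8 in blastocysts and between 4.28 and 29.2 in 8-cell embryos. In RefSeq gene order Aqp7 lies next to Aqp3 on chromosome 4 with 0 protein-coding genes between them, and both were higher in blastocysts. Aqp5 lies between Aqp2 and Aqp6 on chromosome 15, and none of the 3 was called. The neighbour of Aqp11 on chromosome 7, Clns1a, which encodes a chloride conductance regulatory protein and belongs to the volume list below, was lower in blastocysts by -1.02 (SE 0.12). These neighbours were noticed after the values were seen, and values of the other flanking genes, such as Pak1 beside Aqp11, are not given here. Of all tested genes 37.5% were called higher and 34.2% lower, and nothing is read from a direction that neighbours share.

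**Figure D4:**
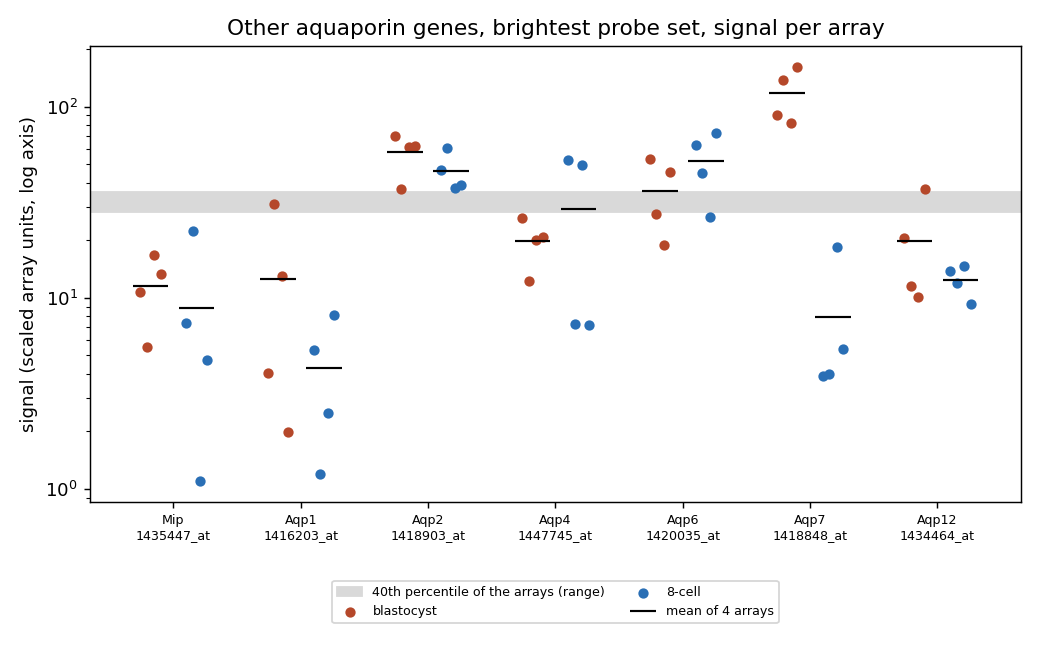
Signal of the brightest probe set of the 7 other aquaporin genes on each array (log axis, scaled array units), with blastocysts left of 8-cell embryos. Points are arrays, black lines are means of 4 arrays and the grey band spans the 40th percentile of the arrays. Aqp7 is the 1 gene whose stages do not overlap.

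Water follows solute, and 14 of 16 measured genes of ion transport into the cavity were tested. Of these 6 were higher, 5 lower and 3 did not pass. That is 78.6% called, where 71.7% of all tested genes were called (37.5% higher and 34.2% lower), so the counts are near those of all genes. The median difference was 0.27, against 0.02 over all tested genes. Car2, which encodes a carbonic anhydrase, was at 515 ± 379 in blastocysts and 11.9 ± 7.29 in 8-cell embryos, at least 12.85-fold higher with the 8-cell signals set at the 40th percentile. The sodium pump subunit gene Atp1b1, at 9854 ± 630 in blastocysts and 749 ± 71.4 in 8-cell embryos, differed by 3.69 (SE 0.12), the channel gene Clic1 by 3.50 (SE 0.19) and the anion exchanger gene Slc4a2 by 3.05 (SE 0.24). These are the 4 largest differences of the list. Among the 5 lower genes, Slc12a2 differed by -2.91 (SE 0.11) and the sodium pump subunit gene Atp1b3 by -1.19 (SE 0.11), both named after their values were seen. With scaling to the spike-ins the lower genes numbered 3 in place of 5.

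Aquaglyceroporins carry glycerol, and of 14 tested genes of glycerol and triglyceride handling 6 were higher, 5 lower and 3 did not pass. Here too 78.6% were called, against 71.7% of all tested genes, and the median was 0.26, against 0.02. Lpl, which encodes lipoprotein lipase, was at 927 ± 273 in blastocysts and 15.2 ± 9.73 in 8-cell embryos, at least 26.45-fold higher. Plin2, which encodes a lipid droplet coat protein, differed by 4.34 (SE 0.18), Abhd5, which encodes an activator of triglyceride lipase, by 2.35 (SE 0.13), and Dgat2, which encodes a triglyceride synthesis enzyme, by -2.54 (SE 0.15). Leaving out probe sets that may read several transcripts (_x_at, _s_at, _a_at), the higher genes numbered 3.

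Cells also set their volume through osmolyte carriers and chloride channels. Of 14 tested genes of this kind 5 were higher, 8 lower and 1 did not pass, which is 92.9% called, against 37.5% higher, 34.2% lower and 71.7% either way among all tested genes. The median was -0.54, against 0.02, and with scaling to the spike-ins the lower genes numbered 5. The volume-regulated anion channel subunit genes Lrrc8d and Lrrc8c were higher. Lrrc8d differed by 4.18 (SE 0.23), and Lrrc8c, at 231 ± 120.5 in blastocysts and 15.1 ± 12.5 in 8-cell embryos, was at least 6.22-fold higher. The amino acid carrier gene Slc38a2 differed by 2.65 (SE 0.28) and the inositol carrier gene Slc5a3 by -1.64 (SE 0.15).

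Vesicle traffic and phosphorylation place some aquaporins in the membrane, and of 18 tested genes of that list 11 were higher, 2 lower and 5 did not pass. The share called, 72.2%, was near the 71.7% of all tested genes, of which 37.5% were higher and 34.2% lower, and the median was 1.08, against 0.02. Msn, which encodes the actin linker moesin, differed by 5.85 (SE 0.20), and Myo5b, which encodes a motor of recycling vesicles, by 5.03 (SE 0.16). Lgals3, which encodes galectin-3, differed by 3.19 (SE 0.20), and Prkaca, which encodes a catalytic subunit of protein kinase A, by 2.89 (SE 0.22). The lower genes numbered 1 with median scaling or without the _x_at, _s_at and _a_at probe sets, and 0 with scaling to the spike-ins.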

How the data were processed

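The authors deposited a linear signal intensity per probe set (45101) and array (8). Per the labels' protocols, RNA was amplified and biotin-labelled. The software behind the signals was not given in the sources used here. Deposited values had the same mean on each array after removal of the outer 2%, and array medians differed by 0.19 log2 units at most, so the deposited scale was kept.

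The 64 control probe sets stayed out of the tests. GEO's platform annotation gave 1 symbol to 34945 other probe sets, several to 932, and the remaining 9160 are unnamed here. Updating symbols through RefSeq (GRCm38.p6) changed 0 of them. Signals became log2(signal + 16). For each gene the probe set with the highest mean was used, and a gene was tested where 4 or more of the 8 arrays exceeded their own 40th percentile (13274 of 18193 genes). Probe sets were tested the same way (28227). Of the 5 aquaporin genes 4 were tested, and of their 11 probe sets 9. The filter takes either stage, so a gene bright at 1 stage only also passed.

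Stages were compared with limma (lmFit, eBayes, no covariates) and Benjamini-Hochberg adjustment over all features, at 0.05. The ratio of 2 aquaporins was compared by exact permutation over the 70 assignments of the arrays. A fold on the log2(signal + 16) scale understates the change of dim genes. The aquaporins and all lists were chosen with earlier results of these data known. Named genes are all aquaporins, the 3 nearest profiles per gene (provisional Rik, Gm and LOC symbols left out), and the 4 called genes with the largest difference in each list. Others are said to be named after their values were seen, except array checks and list members named as untested.

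On simulated data (13274 genes, 200 changed, 10 runs) the fit recovered 10.6% of changes of 0.5 log2 units, 59.6% of 1, 91.4% of 2 and 99.8% of 4, and 5.08% of its calls were false. Far fewer genes changed there than on the arrays, where 71.7% of tested genes were called. The adjustment was therefore stricter, and these rates do not give the power of the stage comparison. The number of arrays limits the precision. Alternatives were 3 scalings, 2 filters, 2 rules for probe sets, 2 variance models, a replicate block, 1 or 64 added, a floor at the 40th percentile, and leaving out each array. R 4.3.3, limma 3.58.1, data.table (version 1.17.8), Python 3.11.15 and matplotlib 3.10.9 were used.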

Additional observations from a re-analysis of the deposited data

Results flagged for a closer look

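Each stage's 4 arrays were checked for a single array far from the others, over all aquaporin probe sets and 4 array measures, 58 groups in all. In 4 groups 1 array stood apart by Dixon's criterion, where chance gives about 5%. For the dimmer Aqp9 probe set blastocyst replicate 1 was at 236 and the others at 330.1 to 345. For Aqp7, 8-cell replicate 3 was at 18.4 on the brighter probe set, with the others at 3.9 to 5.4, and 8-cell replicate 4 was at 4.1 on the dimmer one, with the others at 10.8 to 12.4. For the dimmest Aqp6 probe set, blastocyst replicate 3 was at 11.6 and the others at 1.43 to 1.58. The Aqp7 and Aqp6 values all lie under the 40th percentile of their arrays. The high Aqp5 signal on 8-cell replicate 3 did not meet the criterion on the log2(signal + 16) scale.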

How the results depend on the processing

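Aqp3, Aqp8 and Aqp11 kept their direction and an adjusted p under 0.05 (limma) in all 21 alternative settings, over ranges of 0.85 to 1.24, 3.99 to 5.48 and -2.58 to -1.01. Aqp9 kept its direction and lost its call with quantile scaling (-0.35), with spike-in scaling (-0.25) and in 5 of the 8 fits without 1 array, which ranged from -0.65 to -0.39. The number of aquaporins called lower was then 1 in place of 2, and 1 to 2 without 1 array each. Aqp5, fitted without the filter, passed with an intensity trend and robust estimation (-0.97), with 1 added (-2.06) and without 8-cell replicate 2 or 3 (range without 1 array -1.25 to -0.49). The dimmer Aqp9 probe set passed with quantile scaling (-0.70). The third Aqp11 probe set changed sign with quantile scaling (0.064), median scaling (0.064), spike-in scaling (0.20), array weights (0.023) and 1 added (0.020), and ranged from -0.22 to 0.14 without 1 array. Spike-in scaling moved the median difference of all genes to 0.26, against 0.02, and 62.5% of calls were then higher against 52.3%. It gave 5403 higher and 3244 lower genes, against 4978 and 4539. The causes were not tested. Whether the replicate numbers pair the arrays is not in the labels. The values gave no sign of it, since same-numbered arrays correlated at -0.0354 to -0.0242 in their deviations and none correlated best with its own number. With the replicate block 4862 genes were higher and 4412 lower, Aqp9 had an adjusted p of 0.0219, and Aqp6 passed (-0.37, adjusted p = 0.0462). Signals under the 40th percentile limit Aqp5 at both stages and Aqp7 in 8-cell embryos.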
